A study of Saccharomyces cerevisiae with 40 samples.

Results

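The 31 genes described here encode the enzymes that make ergosterol, the sterol of the yeast plasma membrane, with its regulators, esterifying enzymes and importers. They were chosen by gene symbol from the probes of both deposited value tables, and all 31 were found among the 5557 genes with a named probe. In all, 9 belong to the early mevalonate steps, 16 to the late sterol steps, and the regulators, the sterol esterifying enzymes and the sterol importers give 2 each. Of the 31, 29 had values on at least 30 of the 40 arrays and were tested, as were 4332 genes of the whole series. ERG13, the HMG-CoA synthase gene of the mevalonate steps, and AUS1, a sterol importer gene, had values on 19 and 23 arrays and were not tested.

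Saccharomyces cerevisiae of the laboratory strain Sigma1278b was grown in minimum medium with 3% glucose on 1 of 20 nitrogen sources or on urea. The sources were ammonium (as ammonium sulfate), alanine, arginine, asparagine, aspartate, citrulline, GABA, glutamate, glutamine, isoleucine, leucine, methionine, ornithine, phenylalanine, proline, serine, threonine, tryptophan, tyrosine and valine. Tryptophan was supplied at 5 mM and the other sources at 10 mM. Urea was at 10 mM where the labels state it, which they do not for array 1 of arginine. Cells were taken in exponential growth at low density after at least 10 generations. On each array polyA RNA from cells on a source was hybridised with polyA RNA from cells on urea, 1 in the Cy5 and 1 in the Cy3 dye, and each source had 2 arrays. For 18 sources array 1 carried the source in Cy5 and array 2 carried it in Cy3, while tryptophan and tyrosine were in Cy3 on both arrays. Separate cultures are not stated in the labels for the replicate arrays, so the p-values reflect the spread from array to array, which may be technical. Urea was the only control and lay on every array, so a difference that all sources share cannot be told apart from a property of the urea RNA. In such bulk cultures fewer cells of a kind and less RNA per cell cannot be told apart either.

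Ergosterol is built in stages. The mevalonate enzymes turn acetyl-CoA into isoprene units and then farnesyl diphosphate, which also feeds dolichol, ubiquinone, haem A and protein prenylation. The later enzymes join farnesyl units into squalene, close squalene into lanosterol, and trim, methylate and desaturate lanosterol into ergosterol. Several of the later enzymes need oxygen, haem or iron. The zinc-cluster factors Upc2 and Ecm22 activate many of these genes when sterol is scarce, Are1 and Are2 store excess sterol as esters, and Aus1 and Pdr11 import sterol when cells lack oxygen.

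Values below are log2 ratios of source over urea, so that a negative value means less RNA than on urea. Array values are means over the spots of a gene, turned to source over urea. Fitted values come from 1 model over all 40 arrays with a term per source and a term for the dye, and SE is the error of that fit. "Rose" and "fell" mark an adjusted p under 0.05 from limma, adjusted by Benjamini-Hochberg over all genes tested in that comparison. Between 3294 and 5218 genes had a value on an array (median 4708), and across genes the replicate arrays of a source correlated at 0.37 (citrulline) to 0.80 (glutamine). DUR3, the urea transporter gene, which served as a check of direction, fell on 20 sources.

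Averaged over sources, most late sterol genes were lower than on urea, while most early mevalonate genes did not pass the test. Of the 16 late genes, 12 fell in the mean over sources and 1, ERG4, rose. Of the 8 early genes tested, ERG10 and IDI1 rose and ERG8 fell. Over the 29 tested genes 14 fell and 5 rose, against 37% and 35.3% of all genes tested. The median of the gene means was -0.19 for the late genes, -0.01 for the early genes and -0.01 for all genes. All 12 late genes that fell had array means below 0 in both dye orientations. Among the 19 genes that passed in the mean, 17 kept 1 sign in both orientations, the exceptions being ERG8 and IDI1.

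**Figure D1:**
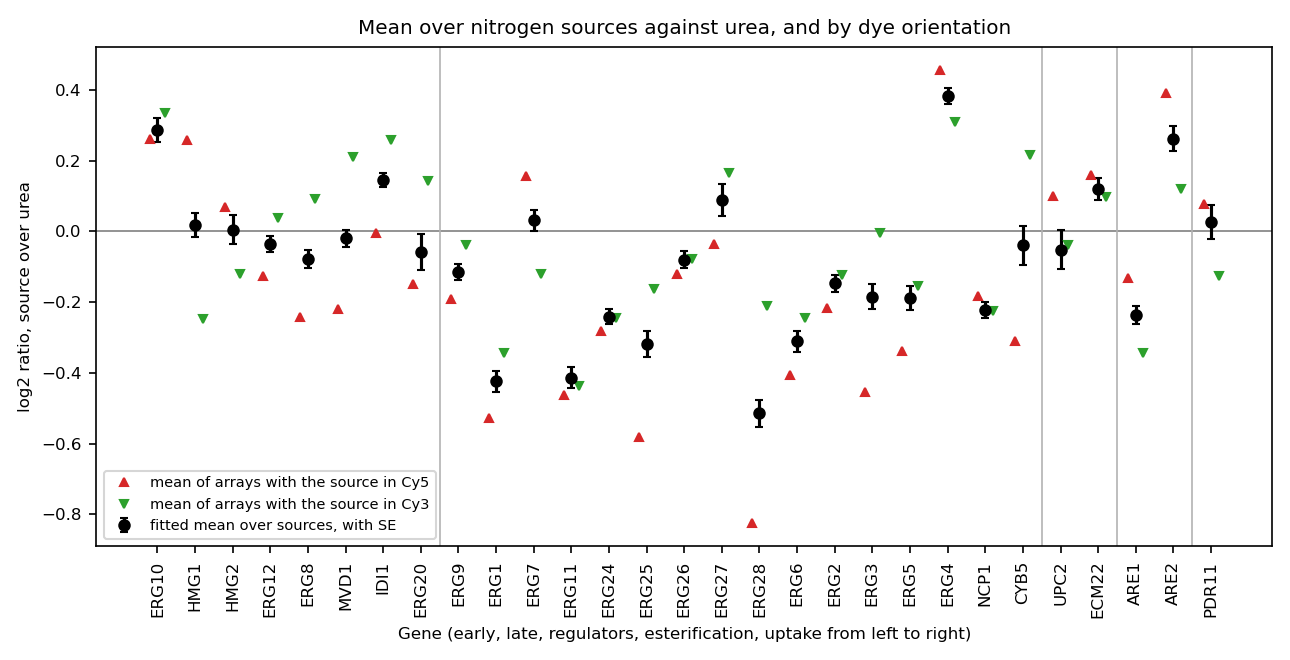
Mean log2 ratio of source over urea for the 29 tested genes, in pathway order. Black points with bars are the fitted mean and its SE, and triangles are plain means of the arrays with the source in Cy5 (upward) or Cy3 (downward). ERG28 lies lowest (-0.52) and ERG4 highest (0.38), and HMG1, MVD1 and CYB5 have orientation means on opposite sides of 0.

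ERG28 encodes the scaffold that holds the demethylase complex of the later steps together, and it had the lowest mean of the set. With the source in Cy5, its 18 array values ran from -1.31 to -0.07 (median -0.81), and with the source in Cy3 from -1.05 to 0.32 (median -0.12). All 18 of the first kind and 13 of 18 of the second lay below 0, so the gene was low in both orientations but by unequal amounts. The fitted mean was -0.52 ± 0.04 (SE, 20 sources, adjusted p = 6.1e-12), and ERG28 fell on 10 single sources.

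ERG1 encodes squalene epoxidase, the first enzyme of the path that uses oxygen. Its array values ran from -0.92 to -0.25 (median -0.51) with the source in Cy5 and from -0.95 to 0.12 (median -0.27) with the source in Cy3. Only 2 of 40 arrays lay above 0. The mean was -0.42 ± 0.03 (adjusted p = 1.8e-12) and ERG1 fell on 11 sources.

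ERG11 encodes the cytochrome P450 that demethylates lanosterol and is the target of azole antifungals. Its array values ran from -0.78 to -0.16 (median -0.42) with the source in Cy5 and from -1.10 to 0.16 (median -0.48) with the source in Cy3. Both orientations gave nearly the same centre, and 36 of 40 arrays lay below 0. The mean was -0.41 ± 0.03 (adjusted p = 3.0e-12), and ERG11 fell on 12 sources, the most of any of the 29 genes. ERG24, the reductase gene of the next step, had a mean of -0.24 ± 0.02, with 37 of 40 arrays below 0, and fell on 9 sources.

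The demethylase complex that Erg28 organises was uneven. ERG25, its oxygen-using oxidase gene, had a mean of -0.32 ± 0.04 and fell on 6 sources, with array means of -0.58 in the Cy5 and -0.16 in the Cy3 orientation. ERG26, its dehydrogenase gene, had a small mean decrease of -0.08 ± 0.02 (adjusted p = 0.00422). ERG27, its ketoreductase gene, had a mean of 0.09 ± 0.05 (adjusted p = 0.0782) and did not pass. That call rested on 1 array of arginine, on which ERG27 read -1.53, the lowest of its 40 arrays: without arginine replicate 1 the mean was 0.14 (adjusted p = 6.6e-05).

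The enzymes of the side chain and the ring double bonds also moved unequally. ERG6, the sterol methyltransferase gene, lay below 0 on 39 of 40 arrays, with a mean of -0.31 ± 0.03 and a decrease on 7 sources. ERG2, the sterol isomerase gene, had a mean of -0.15 ± 0.02. ERG3, the ring desaturase gene, had a mean of -0.19 ± 0.04 (adjusted p = 5.4e-05), made up of an array mean of -0.46 in the Cy5 orientation and -0.01 in the Cy3 orientation. ERG5, the cytochrome P450 gene of side chain desaturation, had a mean of -0.19 ± 0.03 (adjusted p = 2.3e-05), fell on 6 sources and rose on 1.

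ERG4, which encodes the reductase of the final step, went the other way. Its array values ran from 0.17 to 0.88 (median 0.47) with the source in Cy5 and from -0.20 to 0.85 (median 0.32) with the source in Cy3. The only array below 0 was array 2 of methionine, and 38 of 39 lay above it. The mean was 0.38 ± 0.02 (adjusted p = 1.3e-13), and ERG4 rose on 13 of 19 sources tested. Across genes tested on at least 19 sources, 7.01% rose on at least 10 and 6.91% fell on at least 10. Among the 23 sterol genes tested that often, ERG4 was the 1 that rose on at least 10 sources, and ERG1, ERG11 and ERG28 were the 3 that fell on as many.

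On either side of ERG1 in the path, ERG9 and ERG7 had means nearer 0. ERG9, the squalene synthase gene, had a mean of -0.11 ± 0.02 (adjusted p = 0.00011). ERG7, the lanosterol synthase gene, had a mean of 0.03 ± 0.03 (adjusted p = 0.367). Of the electron donors, NCP1, the reductase gene that serves cytochrome P450 enzymes, had a mean of -0.22 ± 0.02 with 38 of 40 arrays below 0. CYB5, the cytochrome b5 gene, had a mean of -0.04 ± 0.06 (adjusted p = 0.527), with array means of -0.31 and 0.22 in the Cy5 and Cy3 orientations. The 7 genes whose products use or serve oxygen, haem or iron chemistry (ERG1, ERG11, ERG25, ERG3, ERG5, NCP1 and CYB5) included 6 that fell in the mean, all but CYB5, where 37% of all genes did. Their median mean was -0.22, beside -0.19 for all 16 late genes, which include them.

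In the mevalonate steps ERG10, the acetoacetyl-CoA thiolase gene at the entry, had the largest mean. Its array values ran from -0.09 to 0.81 (median 0.28) with the source in Cy5 and from -0.26 to 0.92 (median 0.36) with the source in Cy3. In all, 34 of 39 arrays lay above 0, in both orientations. The mean was 0.29 ± 0.03 (adjusted p = 5.0e-08), and ERG10 rose on 6 sources, namely ornithine, glutamine, aspartate, arginine, serine and glutamate.

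IDI1, the isopentenyl diphosphate isomerase gene, had a mean of 0.14 ± 0.02 (adjusted p = 5.1e-07) and rose on 7 sources. Its array values depended on the dye, from -0.59 to 0.31 (median -0.02) with the source in Cy5 and from 0.01 to 0.50 (median 0.25) with the source in Cy3. All 18 arrays of the second kind lay above 0 and 10 of the first kind lay below it. ERG8, the phosphomevalonate kinase gene, had array means of -0.24 and 0.09 in the Cy5 and Cy3 orientations and a fitted mean of -0.08 ± 0.03 (adjusted p = 0.00611). MVD1, the mevalonate diphosphate decarboxylase gene, had orientation means of -0.22 and 0.21 and a fitted mean of -0.02 ± 0.02 (adjusted p = 0.458). HMG1, which encodes the major HMG-CoA reductase, showed the reverse, 0.26 and -0.25, with a fitted mean of 0.02 ± 0.04 (adjusted p = 0.655). Dye orientation, replicate number and deposited table coincide for the 18 sources, so an effect of the dye and one of the table cannot be told apart. The second reductase gene HMG2 (0.01 ± 0.04), the mevalonate kinase gene ERG12 (-0.04 ± 0.02) and the farnesyl diphosphate synthase gene ERG20 (-0.06 ± 0.05) did not pass. Without tryptophan replicate 2, the ERG20 mean was -0.10, a refit that left its array at -1.61 alone for tryptophan.

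The untested ERG13 had 19 array values between -0.31 and 0.28 (median -0.09), with 6 above 0, and both arrays on 2 sources only.

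The regulators, ester synthases and importers had small means. UPC2 had a mean of -0.05 ± 0.06 (adjusted p = 0.404), and without proline replicate 1 the mean was -0.11. On proline its arrays read 0.26 and -1.33, the second being the lowest of its 36 arrays, so that refit left the low array alone for proline. ECM22 rose by 0.12 ± 0.03 in the mean (adjusted p = 0.0016). The 2 ester synthase genes went opposite ways. ARE1 lay below 0 on 34 of 36 arrays, had a mean of -0.24 ± 0.03 (adjusted p = 2.8e-08) and fell on 7 sources. ARE2 lay above 0 on 29 of 36 arrays, had a mean of 0.26 ± 0.04 (adjusted p = 1.0e-06) and rose on 5. PDR11 had a mean of 0.03 ± 0.05 (adjusted p = 0.638). AUS1 had 23 array values between -0.18 and 0.60 (median 0.04), of which both alanine arrays, at 0.23 and 0.60, included the highest.

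The question of which genes differ between the sources themselves is free of what the urea RNA of all arrays shares. Whether 1 urea culture served all arrays is not stated in the labels, so differences between urea cultures may enter. By limma's moderated F-test among the sources, 10 of the 29 genes differed, against 23.5% of all genes tested. The late genes were ERG5 (F = 6.55, adjusted p = 0.000242), ERG4 (4.06, 0.00758), ERG3 (3.65, 0.0113), ERG28 (3.45, 0.0152) and ERG11 (3.42, 0.0159). The early genes were IDI1 (3.76, 0.0096), ERG8 (3.61, 0.0191), MVD1 (2.83, 0.0375) and HMG1 (2.81, 0.0432), and ECM22 was the regulator (2.72, 0.0491). Without the dye term, 2 of the 10 passed, ERG5 and ERG11. With the replicate number as a block in place of the dye term, 6 of the 10 passed, namely ERG5, ERG11, ERG3, ERG4, ERG8 and IDI1. ERG5, ERG4, ERG3, ERG28, ERG11 and IDI1 passed in each of 40 refits that left out 1 array. ERG8 passed in 39, failing without ornithine replicate 1 (adjusted p = 0.0514), while MVD1, HMG1 and ECM22 passed in 24, 12 and 8. Over those refits the number of sterol genes that differed ran from 6, without ornithine replicate 1, to 14, without arginine replicate 2. Without the tryptophan and tyrosine arrays, a setting chosen after seeing the data, ERG3 and HMG1 did not pass. Without the citrulline and isoleucine arrays, also chosen after seeing the data, MVD1, HMG1 and ECM22 did not pass. With a minimum of 20 arrays per gene, HMG1 and ECM22 did not pass. The share of all genes passing is not given for these alternatives and refits.

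**Figure D2:**
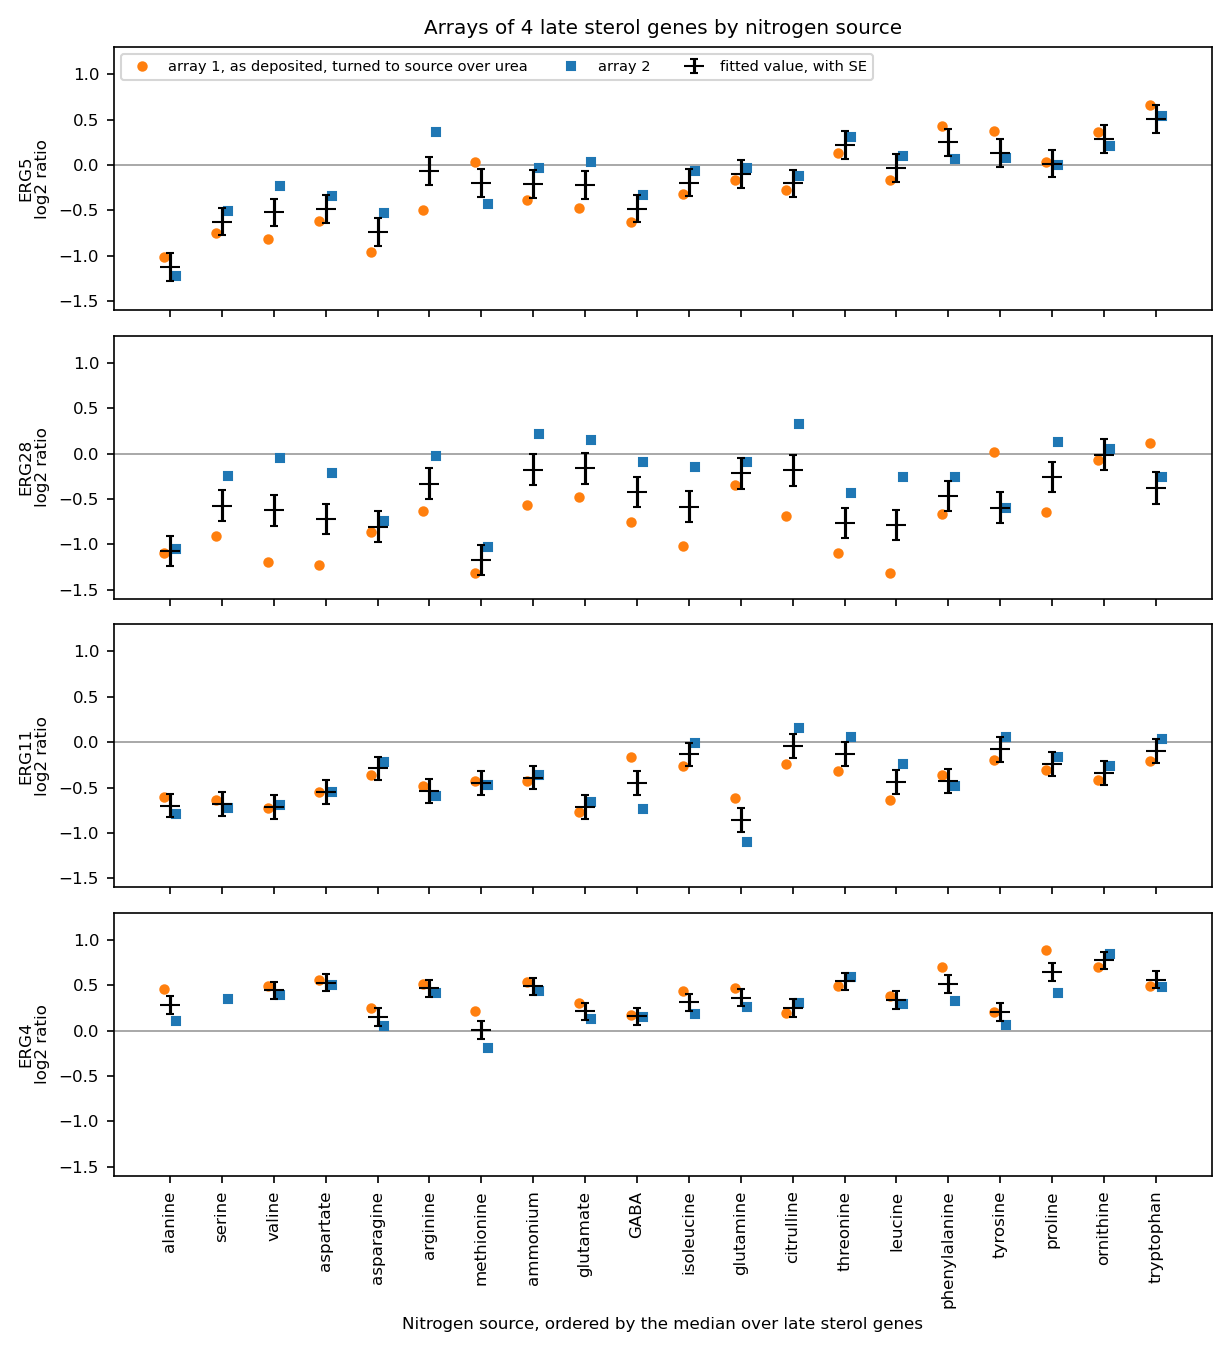
Both arrays (circles, array 1, and squares, array 2) and the fitted value with its SE (bars) of ERG5, ERG28, ERG11 and ERG4 on each source, as log2 ratio of source over urea. Sources are ordered by the median of the late genes; ERG5 runs from -1.12 on alanine to 0.51 on tryptophan. Fitted values of tryptophan and tyrosine lie off their arrays because the dye term is not balanced there.

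ERG5 spanned 1.63 on the log2 scale. On alanine its arrays read -1.02 and -1.23, on asparagine -0.96 and -0.53, and on serine -0.75 and -0.50. On threonine they read 0.13 and 0.31, on ornithine 0.36 and 0.21, and on tryptophan 0.66 and 0.54. Alanine stood below the other sources on both arrays, and the arrays of these last sources all lay above 0. Fitted values ran from -1.12 ± 0.15 on alanine (adjusted p = 7.5e-06) to 0.51 ± 0.16 on tryptophan (adjusted p = 0.0245). In order, alanine lay 0.38 below asparagine, more than the SE of a difference of 0.22, and only 3 of the steps between neighbours exceeded that SE, so most neighbours cannot be ordered.

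ERG3 read -1.14 and -0.35 on the alanine arrays and -1.01 and -0.72 on those of asparagine. Tryptophan gave 0.61 and 0.90, the highest arrays of the gene. ERG3 fell by 0.87 ± 0.16 on asparagine, 0.74 ± 0.16 on alanine and 0.54 ± 0.16 on GABA, and rose by 0.53 ± 0.16 on tryptophan, a call lost without either of its arrays. The asparagine call remained without either of its arrays (adjusted p = 0.00688 and 0.0364).

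ERG4 was highest on ornithine, where both arrays were high (0.70 and 0.85), followed by proline (0.88 and 0.41) and tryptophan (0.50 and 0.48). It was lowest on methionine, where the arrays lay on both sides of 0 (0.22 and -0.20). The fitted values ran from 0.01 ± 0.10 on methionine to 0.77 ± 0.10 on ornithine (adjusted p = 5.5e-06).

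ERG28 was lowest on methionine (arrays -1.31 and -1.03) and alanine (-1.10 and -1.05), the sources on which both arrays lay below -1. On leucine the arrays read -1.31 and -0.26, and on ornithine -0.07 and 0.05. The fitted values were -1.17 ± 0.17 on methionine (adjusted p = 9.3e-06) and -1.07 ± 0.17 on alanine (adjusted p = 5.5e-05). ERG11 was lowest on glutamine (-0.61 and -1.10; fitted -0.86 ± 0.13), with glutamate (-0.78 and -0.66), valine (-0.73 and -0.70) and serine (-0.64 and -0.72) close to it. It was near 0 on citrulline (-0.25 and 0.16) and tyrosine (-0.19 and 0.06). No step between neighbours in its order exceeded the SE of a difference of 0.18.

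Among the early genes IDI1 was highest on tyrosine (arrays 0.64 and 0.46, fitted 0.42 ± 0.09) and threonine (0.31 and 0.50, fitted 0.40 ± 0.09). It was lowest on valine, where array 1 read -0.59 and array 2 read 0.11 (fitted -0.24 ± 0.09, adjusted p = 0.0618). ERG8 fell on alanine (-0.42 and -0.45) and valine (-0.65 and -0.16) and rose on ornithine (0.19 and 0.43). MVD1 fell on the same 2 sources, alanine (-0.38 and -0.41) and valine (-0.56 and -0.12), and was highest on proline (0.27). HMG1 was highest on ornithine (0.43) and lowest on alanine (-0.44), where its arrays lay far apart at 0.18 and -1.07 and the value was -0.05 without array 2.

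Source by source, the late genes gave most of the decreases. Of 554 tests of a gene on a source, 39 were higher and 91 lower (7.04% and 16.4%), against 10.1% higher and 9.42% lower over all genes. The late genes gave 16 higher and 77 lower of 319 tests (24.1% lower), the early genes 15 higher and 6 lower of 148 (4.05% lower). The 7 oxygen, haem or iron genes gave 45 of those 77 decreases, in 140 tests (32.1%). They were uneven, ERG11 and ERG1 giving 12 and 11 of the 45 and CYB5 giving 1. Of the late genes outside that group, ERG28, ERG24 and ERG6 fell on 10, 9 and 7 sources, and each of the rest on 3 or fewer. Of the 130 calls in all, 126 had both arrays on the same side of 0. The calls were selected on the same arrays, so this agreement follows largely from the selection. With a single array left for a source its SE is larger, and 13 calls remained without either array. They were the decreases of ERG1 on arginine, of ERG11 on glutamate, glutamine, serine and valine, of ERG28 on alanine and methionine, of ERG3 on asparagine and of ERG5 on alanine, and the increases of ERG4 on aspartate, ornithine, proline and tryptophan.

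**Figure D3:**
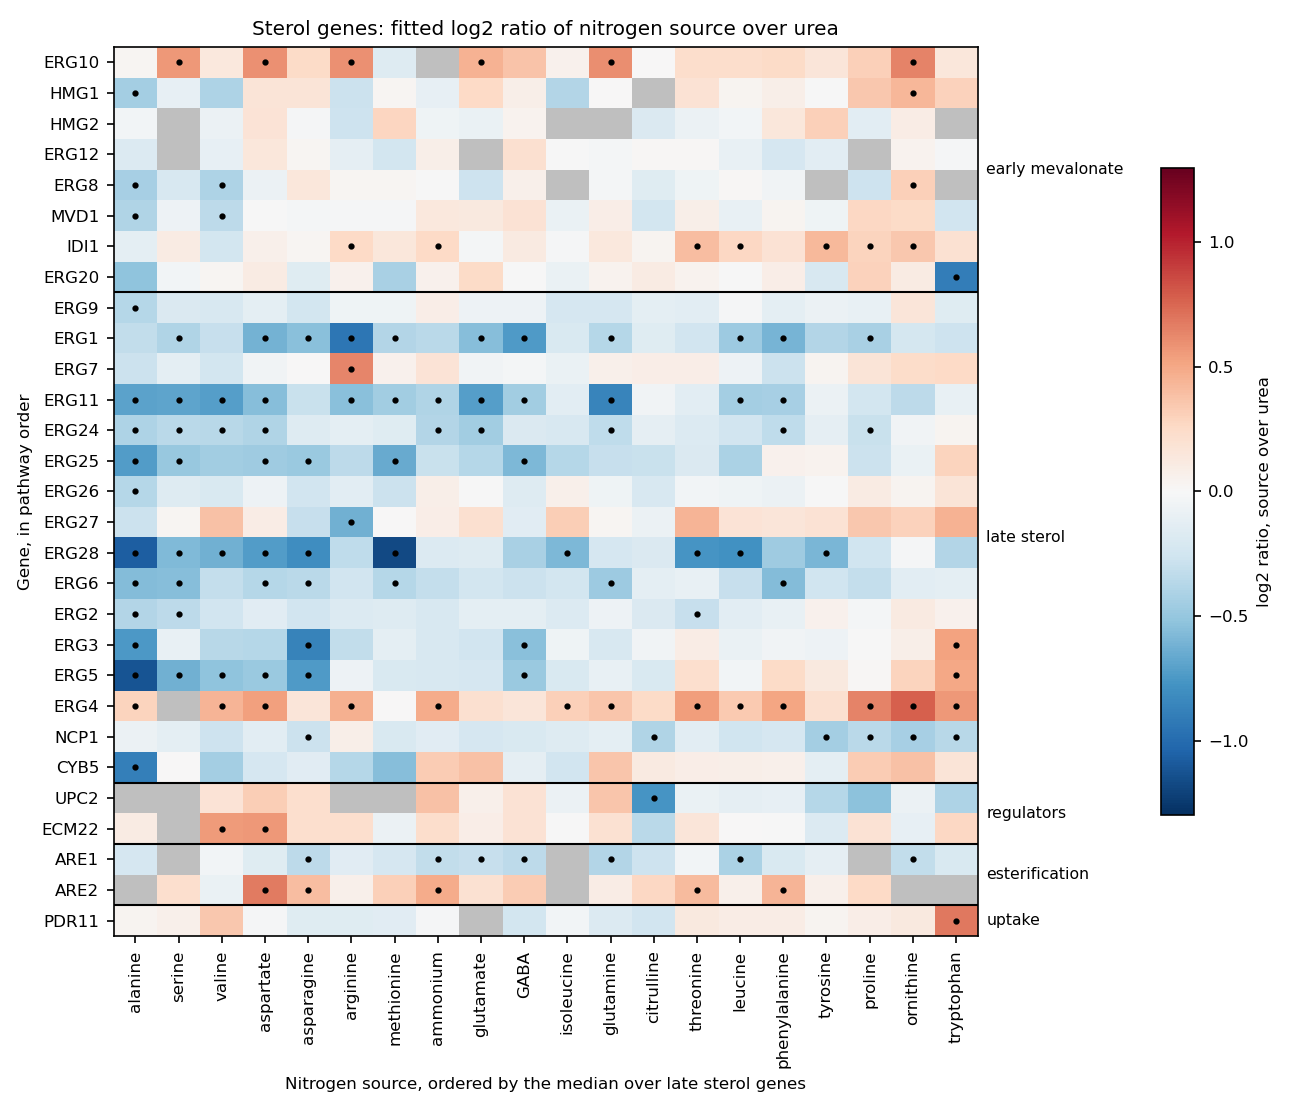
Fitted log2 ratio of source over urea (colour, from blue for lower to red for higher) for the 29 tested genes in pathway order and the 20 sources, ordered by the median of the late genes. Dots mark calls at an adjusted p under 0.05 and grey cells were not tested; alanine holds 14 of the 91 lower calls, and the ERG4 row holds 13 higher calls.

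The median of the late genes lay below 0 on 18 of 20 sources and below that of the early genes on 19. It ran from -0.39 on alanine to 0.11 on tryptophan, and ornithine (0.06) was the other source above 0. The early median ran from -0.29 on alanine to 0.29 on proline, and all-gene medians lay between -0.01 and 0.00. On 13 sources the late median was below 0 on each of the 2 arrays. The share of late genes that fell exceeded the share of all genes on 18 sources, but on several of them few late genes fell. On citrulline and isoleucine 1 of 16 fell, where 4.87% and 3.76% of all genes did. On ammonium, threonine and tyrosine 2 of 16 fell, where 10.7%, 8.8% and 6.62% of all genes did.

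**Figure D4:**
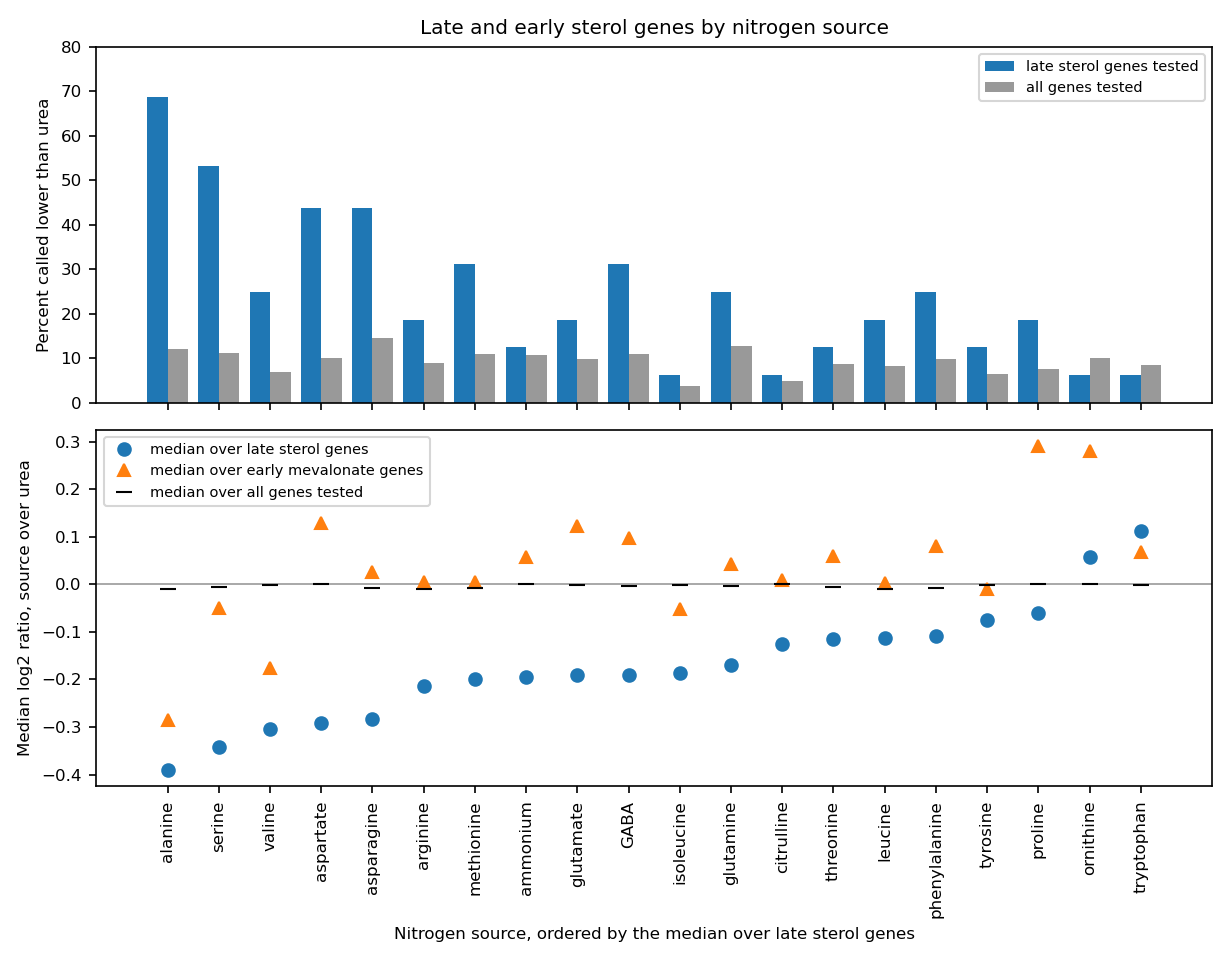
Upper panel, percent of late genes tested and of all genes tested that were called lower than urea on each source. Lower panel, median log2 ratio of source over urea over late genes (circles), early genes (triangles) and all genes tested (dashes); the late median is lowest on alanine (-0.39) and highest on tryptophan (0.11).

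Alanine gave the broadest decrease. Of 27 genes tested, 14 fell and 1 rose, against 12.1% and 9.57% of all genes on that source, and 11 of the 16 late genes fell. ERG5 (-1.12), ERG28 (-1.07) and CYB5 (-0.88, arrays -0.56 and -1.21) were the lowest, and ERG4 rose (0.29, arrays 0.46 and 0.11). The CYB5 call was lost without array 2 (-0.27, adjusted p = 0.707), and the ERG4 call was lost without either array. Of the 29 genes, 9 had their lowest value on alanine. All genes were not counted in that way, so this number has no background to be read against. The late decreases were spread over the branch, from ERG9 (-0.37) to ERG25 (-0.73), ERG26 (-0.37), ERG2 (-0.38) and ERG3 (-0.74). For counts with 1 array left out, here and for the sources below, the share of all genes is not given. Such counts cannot show whether sterol genes lose more calls than other genes. Without array 1, 11 of the genes fell on alanine, and without array 2, 5 did.

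Serine, asparagine and aspartate followed. On serine 8 of 23 genes fell and 1 rose, against 11.3% and 12.7% of all genes. ERG11 (-0.68), ERG5 (-0.62) and ERG28 (-0.57) were lowest, and ERG10 rose (0.57, arrays 0.35 and 0.78). Without array 1, 2 fell, and without array 2, 1 fell. On asparagine 8 of 29 fell and 1 rose (background 14.7% and 10.4%), with ERG3 (-0.87), ERG28 (-0.80, arrays -0.87 and -0.74) and ERG5 (-0.74) lowest and ARE2 (0.40) higher. The counts lower without each array were 3 and 2. On aspartate 7 of 29 fell and 4 rose (background 10.1% and 11.3%). ERG28 (-0.72, arrays -1.23 and -0.22), ERG1 (-0.62) and ERG11 (-0.55) were lowest there, and ARE2 (0.68, arrays 0.53 and 0.83), ERG10 (0.60) and ECM22 (0.57, arrays 0.50 and 0.64) were highest. Without each array 2 and 1 fell.

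Valine, GABA and methionine gave 6, 6 and 5 decreases. On valine, where 6.87% of all genes fell and 9.48% rose, ERG11 (-0.71), ERG28 (-0.63, arrays -1.20 and -0.05) and ERG5 (-0.52) were lowest, and ECM22 (0.55) and ERG4 (0.44) rose. On GABA (background 11% lower and 10.2% higher) the lowest were ERG1 (-0.73, arrays -0.66 and -0.81), ERG25 (-0.58, arrays -0.63 and -0.53) and ERG3 (-0.54). On methionine (11.1% lower and 12.7% higher) they were ERG28 (-1.17), ERG25 (-0.65, arrays -0.55 and -0.75) and ERG11 (-0.45). By limma 0 of the sterol genes tested rose on GABA and 0 on methionine, with 3 and 1 at an unadjusted p under 0.05. All genes were not counted at that unadjusted threshold for these sources. Left with array 2 alone, 1, 4 and 4 genes fell on valine, GABA and methionine, and left with array 1 alone, 3, 0 and 1.

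Glutamine, glutamate, ammonium and arginine had 5, 4, 3 and 3 decreases, where 12.9%, 9.87%, 10.7% and 8.91% of all genes fell. They had 2, 1, 3 and 4 increases, where 12.1%, 10.5%, 10.2% and 8.59% of all genes rose. ERG11 was the lowest on glutamine (-0.86), glutamate (-0.72) and ammonium (-0.39). ERG1 was the lowest on arginine, where its arrays read -0.92 and -0.95 (fitted -0.94 ± 0.13, adjusted p = 1.9e-05). ERG6 (-0.47) and ARE1 (-0.38) also fell on glutamine, ERG1 (-0.56) and ERG24 (-0.45) on glutamate, and ERG24 (-0.38) and ARE1 (-0.32) on ammonium. ERG10 rose on glutamine (0.60), glutamate (0.45) and arginine (0.59), and ERG4 rose on glutamine (0.36), ammonium (0.49) and arginine (0.47). ARE2 (0.48) and IDI1 (0.26) rose on ammonium. On arginine ERG7 read 1.19 and 0.09 on its arrays (fitted 0.64) and ERG27 read -1.53 and 0.29 (fitted -0.62). Both calls rest on array 1, without which ERG7 was at 0.20 and ERG27 at 0.24. The decreases of ERG11 on glutamine and glutamate and of ERG1 on arginine remained without either array; the other calls named for these sources did not.

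Phenylalanine, leucine, proline, threonine, tyrosine, isoleucine and citrulline had 4, 4, 3, 2, 2, 1 and 2 decreases, where 9.8%, 8.27%, 7.61%, 8.8%, 6.62%, 3.76% and 4.87% of all genes fell. Increases numbered 2, 2, 2, 3, 1, 1 and 0, where 10.6%, 10.4%, 9.6%, 12.7%, 8.43%, 5.73% and 5.25% of all genes rose by limma. On citrulline 1 sterol gene was higher at an unadjusted p under 0.05, a threshold at which all genes were not counted for that source. ERG28 was the lowest on leucine (-0.79), threonine (-0.77), isoleucine (-0.58) and tyrosine (-0.60), where its first array read 0.02. ERG1 was the lowest on phenylalanine (-0.60, arrays -0.81 and -0.40) and proline (-0.43). UPC2 was the lowest on citrulline, where the arrays read -1.16 and -0.37 (fitted -0.76, adjusted p = 0.0294). NCP1 fell on tyrosine (-0.44), citrulline (-0.39) and proline (-0.35), ERG6 on phenylalanine (-0.57), ERG24 on proline (-0.29) and ERG2 on threonine (-0.30). ERG11 fell on leucine (-0.44) and phenylalanine (-0.43), and ERG1 on leucine (-0.47). Of the increases, ERG4 passed on proline (0.65), threonine (0.55), phenylalanine (0.51), leucine (0.34) and isoleucine (0.31). IDI1 rose on tyrosine (0.42), threonine (0.40), proline (0.29) and leucine (0.27), and ARE2 on phenylalanine (0.44) and threonine (0.41). Of the calls named in this paragraph, the increase of ERG4 on proline was the one that remained without either array.

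Ornithine and tryptophan stood at the upper end. On ornithine 5 of 28 genes rose and 2 fell, against 10.5% and 10.1% of all genes. Those that rose were ERG4 (0.77), ERG10 (0.64, arrays 0.53 and 0.75), HMG1 (0.43, arrays 0.64 and 0.22), IDI1 (0.35) and ERG8 (0.31), 4 of them mevalonate genes. NCP1 (-0.43, arrays -0.37 and -0.49) and ARE1 (-0.32) fell. Without array 1, 2 rose, and without array 2, 2 rose. On tryptophan 4 of 26 rose and 2 fell (background 10.3% and 8.43%), namely PDR11 (0.69), ERG4 (0.56), ERG3 (0.53) and ERG5 (0.51), with ERG20 (-0.90) and NCP1 (-0.36) lower. The PDR11 arrays were 0.06 and 1.10 and the ERG20 arrays -1.61 and 0.10, so each of these calls rests on 1 array (PDR11 at 0.17 without array 2, ERG20 at -0.05 without array 1). The ERG3 call was lost without either array (0.67 and 0.38), as was that of NCP1 (-0.31 and -0.41). Without array 1, 3 rose and 1 fell, and without array 2, 1 rose and 1 fell.

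The 7 amino acids whose breakdown leaves fusel alcohols (leucine, isoleucine, valine, methionine, phenylalanine, tyrosine and tryptophan) were compared with the 13 other sources, with the source as the unit. By limma 0 of the 29 genes differed at an adjusted p under 0.05, against 2.92% of all genes tested. At an unadjusted p under 0.05, 5 did, against 22% of all genes. ERG10 had a mean of 0.11 over the fusel sources and 0.39 over the others, a difference of -0.27 ± 0.09 (adjusted p = 0.0941). The others were ERG12 (-0.14), ERG20 (-0.25), HMG2 (0.18) and PDR11 (0.20). The fusel means of ERG20 and PDR11 include their tryptophan values (-0.90 and 0.69), each of which rests on 1 array. ERG5 had means of -0.01 and -0.29, a difference of 0.28 ± 0.16 (adjusted p = 0.336), and ERG28 of -0.66 and -0.44 (-0.22 ± 0.13, adjusted p = 0.346). Without alanine replicate 2, ERG10 alone passed (-0.31, adjusted p = 0.0435).

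Across 9 pairs of related sources, with 23 to 29 sterol genes tested in each, 3 gene differences passed. Each lay in a different pair, and 1 gene of such a short list does not set the sterol genes apart from all genes. ERG5 was higher on threonine than on serine by 0.84 ± 0.21 (adjusted p = 0.022), where 3.43% of all genes differed. IDI1 was higher on leucine than on valine by 0.51 ± 0.13 (adjusted p = 0.0335), where 1.63% of all genes differed. ERG1 was higher on citrulline than on arginine by 0.78 ± 0.18 (adjusted p = 0.0133), where 4.71% of all genes differed. The first was lost without any 1 of its 4 arrays (differences of 0.81 to 0.88, adjusted p up to 0.166). The IDI1 difference was lost without leucine replicate 1 or 2 or valine replicate 1 (0.28 to 0.74, adjusted p up to 0.527). The ERG1 difference was lost without citrulline replicate 2 or arginine replicate 2 (0.66 to 0.89, adjusted p up to 0.143). No sterol gene passed between glutamine and glutamate, asparagine and aspartate, leucine and isoleucine, isoleucine and valine, tyrosine and phenylalanine, or ornithine and arginine, where 0.731%, 0.702%, 1.19%, 0.265%, 2.15% and 0.0962% of all genes did. At an unadjusted p under 0.05 the numbers of sterol genes in those pairs were 0, 2, 1, 2, 1 and 7. All genes were not counted at that unadjusted threshold for the pairs, so these numbers have no background to be read against. With arginine replicate 1 or arginine replicate 2 left out, 5 and 8 gene differences passed over the 9 pairs.

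As a description, the fitted values of 15 late genes with values on all arrays had a median correlation of 0.39 with each other over the 20 sources (105 pairs, 88 above 0). Over all pairs of 1256 genes the median was 0.00, and between early and late genes it was 0.17. The points share urea as the reference and the dye term. Against the mean of the other late genes, ERG5 correlated at 0.88, ERG26 at 0.83, ERG3 at 0.82 and ERG25 at 0.80. ERG1, which fell on 11 sources, correlated at 0.24, and NCP1 at -0.56. Outside the set, the genes most like the late mean among 1238 compared were COX15 (0.82), PBN1 (0.82), LSC1 (0.80), PIB1 (0.78) and COX12 (0.78).

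Other genes of sterol and lipid metabolism were counted from lists of their own. The means of 5 of 5 tested genes for control and turnover of HMG-CoA reductase at the endoplasmic reticulum lay above 0, and 4 rose. NSG1, which encodes a protein that stabilises Hmg2, had a mean of 0.26 ± 0.02 and rose on 13 sources, and HRD1, the ubiquitin ligase gene, had a mean of 0.26 ± 0.03. Of 11 tested genes of ester breakdown and sterol traffic, 5 rose and 3 fell, among them the steryl ester hydrolase gene YEH2 (0.29 ± 0.04), the oxysterol-binding protein gene KES1 (0.27 ± 0.04) and NPC2 (-0.27 ± 0.03). Of 8 tested genes of other isoprenoid branches 4 rose and 1 fell, with RER2, the dolichol synthase gene, at 0.36 ± 0.03 and 11 sources higher. Of 9 fatty acid genes 5 rose and 4 fell, including FAS1 (0.37 ± 0.03, 11 sources higher) and SPT23, an activator gene of OLE1 (-0.26 ± 0.03, 7 sources lower). Of 10 tested hypoxic and Upc2-linked genes 4 rose and 2 fell, with COX5B, the hypoxic subunit gene of cytochrome oxidase, at -0.52 ± 0.04 and SUT1, an activator gene of sterol uptake, at 0.34 ± 0.03. Against 35.3% and 37% of all genes, these counts are descriptions of short lists.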

How the data were processed

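The 31 genes and the gene lists were chosen with earlier results of these data known. The authors deposited 1 log2 ratio of the Cy5 over the Cy3 channel per spot, in a pair of value tables. They are read as log ratios because they take both signs within a narrow range, and base 2 is assumed. For the normalization, scanner and background correction, nothing is given in the sources used here. Direction was taken from the dyes in the labels, and array medians lay between -0.01 and 0.01.

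Spots of a gene were averaged and ratios turned to source over urea. A gene entered the fit if at least 30 of the 40 arrays gave it a value. The fit used limma 3.58.1 (statmod 1.5.0, R 4.3.3), each source having a signed term beside a dye intercept. Residual degrees of freedom were 19 for a gene with all arrays and the prior added 6.27, with a median residual SD of 0.17. A source was tested for a gene only with both its arrays. Tests were two-sided with Benjamini-Hochberg adjustment over all genes and a threshold of 0.05. Tables were made with pandas 2.3.3 and numpy 2.4.6 and figures with matplotlib 3.10.9, in Python 3.11.15.

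Replicate numbers were checked as pairs: over 18 sources, the difference between replicate 1 and replicate 2 correlated over 0.1 between sources in 153 of 153 pairs (median 0.44, lowest 0.13). For those sources the replicate block is the same column as the dye intercept, so it differs only for tryptophan and tyrosine. The differences between replicates still held the dye effect of each gene, so the check cannot tell paired replicates from the dye.

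The number of arrays limits the precision. On simulated data with 4332 genes, a change of 0.5 on alanine was recovered for 68% of changed genes and a change of 1 for 100%, with 6 unchanged genes called. Each setting changed 50 genes, with noise independent between arrays. In the real data 9.57% of all genes rose and 12.1% fell on alanine, so these rates do not carry over directly.

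Within the early and the late steps, array values were given for the 3 largest F among sources and the 2 largest absolute means, with ERG11, HMG1 and others added after their values were seen. For each source, up to 3 highest and 3 lowest genes that passed were named, and of other lists those of largest absolute mean. Alternatives were the median of spots, array weights, centring on array medians, a minimum of 20 or 40 arrays, no dye intercept, the replicate block, 1 dye orientation, each array left out, threonine counted as fusel, and tryptophan and tyrosine left out. No sequence is shown here.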

Additional observations from a re-analysis of the deposited data

Results flagged for a closer look

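Among the 7 fusel amino acids, 1 of the 29 genes tested had a source far from the others. ERG3 was at 0.525 on tryptophan, while the other 6 values lay between -0.36 and -0.04, so that the gap to the nearest took 0.64 of the whole range. Both tryptophan arrays were high (0.61 and 0.90), and both carried urea in Cy5, so dye and source cannot be told apart there as they can for 18 sources. Chance alone gives about 1 such case in 20 genes.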

How the results depend on the processing

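All 19 genes that passed in the mean over sources, except ERG8, passed under the alternatives that gave them a test; ERG8 failed without the dye term (adjusted p = 0.122). ERG27, which did not pass, passed with the replicate block (0.10, adjusted p = 0.0492), with array weights (0.09, adjusted p = 0.0391) and without arginine replicate 1. By orientation, the ERG8 mean was 0.092 with the source in Cy3 only and the IDI1 mean -0.006 with the source in Cy5 only. Without the dye term, 21 of the source tests were higher and 45 lower, 45 late tests were lower, 6 early tests higher, 2 genes differed among sources and 0 pair differences passed. With the replicate block instead of the dye term, 6 genes differed among sources. With only genes on all 40 arrays, which leaves 18 of the set, 10 source tests and 7 early tests were higher, 1 gene rose in the mean and 6 differed among sources. Leaving out each array gave 35 to 41 higher and 84 to 98 lower source tests, 70 to 81 late lower, 12 to 16 early higher, 5 to 6 genes higher and 14 to 15 lower in the mean, 6 to 14 differing among sources, 0 to 1 between classes and 2 to 8 in pairs. The sign turned for ERG27 on arginine (-1.48 without replicate 2, 0.24 without replicate 1, and 0.29 on its array with the source in Cy3), for ERG20 on tryptophan (0.10 on array 2), for ERG28 on tyrosine (0.02 on array 1, before the dye term) and for HMG1 on alanine (0.18 on array 1). Of 87 calls on single sources named by rule, 75 were lost without 1 of the 2 arrays, where the SE is larger by construction. Leaving out the tryptophan and tyrosine arrays, or the citrulline and isoleucine arrays, was chosen after seeing the data. The cause of the other differences was not tested. For the alternatives and refits in this section the shares of all genes called are not given. Their counts therefore cannot show whether sterol genes depend more on the processing than other genes. With 2 arrays per source, small changes on a single source are near the limit of detection.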

Other observations

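A few genes of lipid and haem synthesis, picked after their values were seen, are given for alanine, the source with the most sterol decreases. Of the 9 fatty acid genes tested on alanine, 2 rose and 3 fell, and of the 10 hypoxic and Upc2-linked genes 2 rose and 1 fell, against 9.57% and 12.1% of all genes. HEM13, a gene of the hypoxic list, which encodes the oxygen-dependent coproporphyrinogen oxidase of haem synthesis, read 0.69 and 1.41 on the alanine arrays (fitted 1.05 ± 0.14, limma adjusted p = 7.6e-06) and passed without either array. On tryptophan, where ERG3 and ERG5 were highest, HEM13 read -0.31 and -0.21 (fitted -0.31, adjusted p = 0.148). OLE1, the fatty acid desaturase gene, read -0.79 and -0.81 on alanine (fitted -0.80 ± 0.14, adjusted p = 0.000232), and passed without either array. It was highest on tryptophan (0.64), the source on which ELO1, a fatty acid elongase gene, was highest too (0.85), and both genes were lowest on alanine (ELO1 -0.35, and -0.06 without array 2). The other 7 fatty acid genes had their lowest values on other sources. Each of the 3 genes differed among sources by limma's F-test (HEM13 5.73, adjusted p = 0.00065; OLE1 5.79, adjusted p = 0.00061; ELO1 6.53, adjusted p = 0.000494).

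COX5B, whose product replaces Cox5a in cytochrome oxidase when oxygen is low, fell on 9 sources. It does not stand for the hypoxic and Upc2-linked list, in which SUT1, DAN4 and HEM13 rose on 7, 4 and 4 sources. The 177 tests of that list gave 17 higher and 18 lower calls (9.6% and 10.2%), against 10.1% and 9.42% over all genes. On asparagine its arrays read -1.25 and -1.58 (fitted -1.42 ± 0.17, adjusted p = 1.4e-06) and it passed without either array. On GABA they read -0.94 and -1.20 (fitted -1.07 ± 0.17, adjusted p = 9.9e-05), and on valine COX5B was highest (0.40).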
